A study of Homo sapiens with 16 samples.

Results

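The transcripts of the human Mediator complex were examined in 293T cells depleted of SETD2 or of hnRNP L. Mediator genes were taken from the expression table by symbol, as every gene named MED followed by a number, with or without a final L, together with CDK8, CDK19 and CCNC. This gave 33 genes of 58884 in the table. 293T is a human embryonic kidney cell line carrying the SV40 large T antigen. SETD2 deposits trimethylation on lysine 36 of histone H3, and hnRNP L is an RNA-binding protein that acts in splicing. Transfection was for 72 h with scramble siRNA as control, with SETD2 siRNA or with hnRNP L siRNA. Each of these gave 2 RNA-seq libraries, all labelled WT, and no other genetic change is named in the labels. Replicates carry the numbers 2 and 3 for SETD2 siRNA and 1 and 2 otherwise, and the study's reporting statement describes the replicates of its sequencing experiments as biologically independent. The RNA came from whole transfected populations, in which fewer cells expressing a gene and less RNA per cell cannot be told apart.

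Mediator is the large coactivator that connects DNA-bound transcription factors to RNA polymerase II. The head and middle modules contact the polymerase and the general transcription factors, MED14 runs through the complex as a scaffold, and the tail receives most activators. The kinase module, made of a cyclin-dependent kinase, cyclin C, MED12 and MED13 or their paralogs, binds reversibly and, when bound, hinders the contact with the polymerase. MED23 is a tail subunit through which several activators work, and it is also known as a protein partner of hnRNP L, which places it between transcription and splicing.

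The deposited values are TPM, a measure of transcript abundance that is scaled for gene length and sums to the same total in each library, so levels of different genes can be set side by side. They keep no read counts, and the counting error behind a single value is unknown. SETD2 itself was at 13.4 and 11.7 TPM in the scramble libraries, 4.24 and 4.91 in the SETD2 siRNA libraries and 10.8 and 10.2 in the hnRNP L siRNA libraries. On the log2(TPM + 0.5) scale used for all differences here, on which weakly expressed genes appear to change less than they do, SETD2 fell by 1.36 ± 0.13 (SE) after SETD2 siRNA (limma with Benjamini-Hochberg adjustment, adjusted p = 0.00603), and with any 1 library left out the adjusted p ranged from 0.0386 to 0.162. HNRNPL was at 341 and 457 TPM in the scramble libraries, 395 and 413 TPM after SETD2 depletion, and 25.0 and 28.8 TPM after hnRNP L depletion. It fell by 3.85 ± 0.14 after hnRNP L siRNA (limma, adjusted p = 8.48e-06). Of 7 genes known to be expressed in 293T cells, all 7 passed the filter on low values. At an adjusted p under 0.05 in limma, 0 of the 7 passed after SETD2 siRNA, where 0.104% of the tested genes passed. After hnRNP L siRNA 2 of the 7 passed, where 11.2% of the tested genes passed. These were the neurofilament genes NEFL and NEFM, which rose by 0.82 and 1.21. The differences of the other 5 after hnRNP L siRNA ran from -0.26 for KRT8 to 0.28 for VIM without passing. The median of the 7 was 0.06. Whether these changes have a part in the Mediator values was not tested. The summed level of 7 markers of blood, endothelial, liver and connective tissue cells lay between 0.09 and 0.52 TPM per library, and 1 of them, PTPRC, was at 0 in all 6.

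All 33 Mediator genes passed the filter, a mean of at least 0.5 TPM over the 6 libraries, which 16300 genes of the table passed. Their median level was 18.9 TPM, above that of 65.7% of the tested genes, and 4 of them (MED12L, MED13, MED7 and MED26) lay below the tested median of 9.71 TPM. Levels differed 25-fold between subunits of what is assembled as one complex. MED4, a middle subunit that pairs with MED9, had the highest mean at 68.2 TPM. MED12L, the MED12 paralog, had the lowest at 2.73 TPM. In 28 of the 33 genes the highest library was less than 1.5 times the lowest, against 52.2% of the tested genes. That share covers tested genes of every level, and no comparison with genes of like level was made. The plot of levels by library shows the spread between libraries beside the wide range between subunits.

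**Figure D1:**
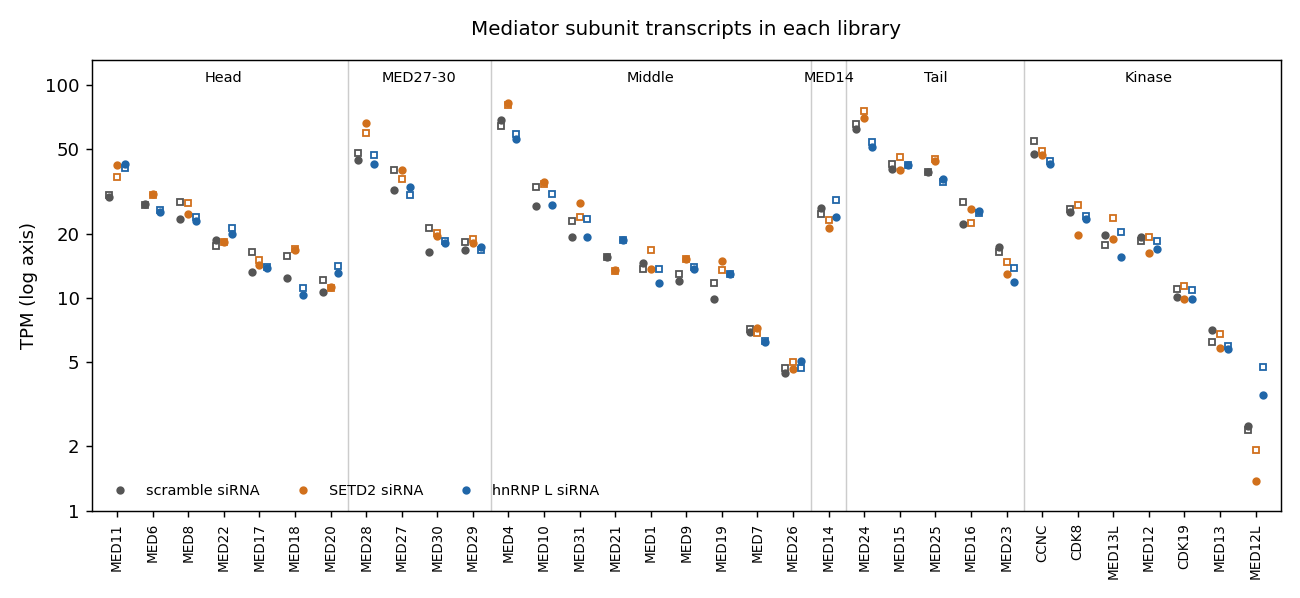
TPM of the 33 Mediator genes in each of the 6 libraries, on a log axis, grouped by module and ordered by mean level within it. Colors mark the siRNA, the filled circle is the lower-numbered library of a group and the open square the other; MED12L sits lowest, between 1.37 and 4.71 TPM, and is the gene whose libraries lie farthest apart.

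Module by module, the median level over subunits was 18.9 TPM in the head (7 genes), 27.0 TPM for MED27 to MED30 (4 genes, placed in the head or the tail by different sources and kept apart here), 13.98 TPM in the middle (9 genes), 39.5 TPM in the tail (5 genes) and 18.1 TPM in the kinase module (7 genes). MED14 had 24.7 TPM. Summed over its 9 genes, the middle module reached 178 and 185 TPM in the scramble libraries, 214 and 209 TPM after SETD2 siRNA, and 170 and 182 TPM after hnRNP L siRNA. Both SETD2 siRNA libraries were above the other 4, which was not particular to the middle module. The head summed to 158 and 156 TPM with SETD2 siRNA and to at most 151 TPM in the other 4. MED27 to MED30 summed to 143 and 134 TPM with SETD2 siRNA and to at most 127 TPM in the other 4. The 5 tail genes summed to 180 and 191 TPM in the scramble libraries, 192 and 203 TPM after SETD2 depletion, and 167 and 169 TPM after hnRNP L depletion, so the 3 groups did not overlap. For the kinase module the sums were 131 and 136 TPM, 119 and 139 TPM, and 118 and 128 TPM in the same order, with the scramble values inside the SETD2 siRNA range. A sum follows the most abundant genes, here MED4 in the middle and MED24 in the tail.

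**Figure D2:**
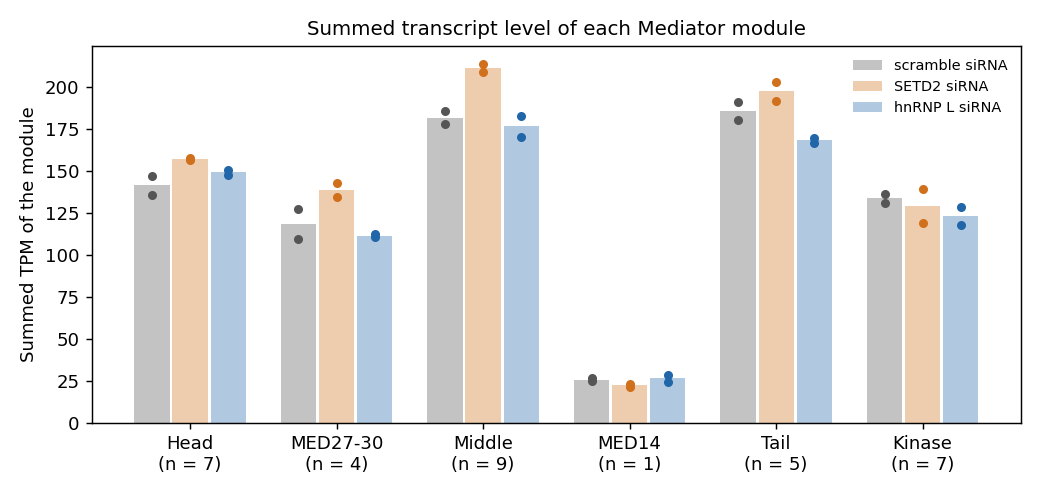
Summed TPM of each module, with bars at the mean of the 2 libraries of an siRNA and points for the libraries; n is the number of genes. The middle module is at 214 and 209 TPM in the SETD2 siRNA libraries and at 185 TPM or less in the other 4. The head, MED27 to MED30 and the tail are also highest in both SETD2 siRNA libraries.

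The first comparison asked whether loss of SETD2 moved Mediator transcripts. No Mediator gene passed the test after SETD2 siRNA, 0 of 33 at an adjusted p under 0.05 with limma, where 0.104% of all tested genes passed. The share of tested genes that also changed more than 1.5-fold was 0.104% as well. At an unadjusted p under 0.05 there were 6 of 33, against 13.1% of the tested genes. These were MED11, MED19, MED28, MED4 and MED9, which had higher means, and MED12L, which had a lower one. Differences ran from -0.47 for MED12L to 0.44 for MED28, all within 1.5-fold, as for 96.2% of the tested genes. The 95% intervals of the 33 differences extended by 0.21 to 0.45 on either side and none reached a 2-fold change. Both SETD2 siRNA libraries lay above both scramble libraries for 11 genes, where 22.9% of the tested genes did so, and below them for 4 genes (MED12L, MED14, MED21 and MED23), where 20.6% did so. The median difference was 0.07 over the 33 genes and 0.01 over all tested genes.

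By module, the median difference after SETD2 siRNA exceeded that of all tested genes by 0.19 in the middle module (SD 0.06). In the head it exceeded it by 0.01 (SD 0.06), for MED27 to MED30 by 0.07 (SD 0.15) and in the tail by 0.03 (SD 0.07). The kinase module was 0.10 below it (module minus all genes, -0.10, SD 0.10). Each SD is between replicate libraries, for the module's median log2 level relative to the median of all tested genes. It does not give the spread of the difference itself. With scramble replicate 1 left out, the value for MED27 to MED30 turned to -0.017, and without scramble replicate 2 it was 0.20. For the kinase module, leaving out 1 library gave -0.17 to -0.025, the latter without SETD2 siRNA replicate 2. Of the 9 middle genes, MED4, MED9, MED10, MED19 and MED31 were higher in both SETD2 siRNA libraries, and of the 7 kinase module genes 0 were, beside the 22.9% of all tested genes. After hnRNP L siRNA, against the same scramble libraries, the middle module was also above all tested genes, by 0.11 (SD 0.06). The head then stood at -0.002 (SD 0.06), MED27 to MED30 at 0.04 (SD 0.15), the tail at -0.04 (SD 0.07) and the kinase module at -0.009 (SD 0.10). These are descriptions of modules chosen with the results known and carry no test.

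The second comparison asked the same of hnRNP L. After hnRNP L siRNA 1 of 33 genes passed, MED11, where 11.2% of the tested genes passed. With a fold above 1.5 required as well it was 0 of 33, where 6.76% of the tested genes were called. At an unadjusted p under 0.05 there were 6 of 33 (MED11, MED12L and MED21 higher, MED18, MED23 and MED24 lower), against 28.4%. Both hnRNP L siRNA libraries lay above both scramble libraries for 8 genes, where 18.8% of the tested genes did so, and below them for 10 genes, where 37.8% did so. Differences ran from -0.40 for MED23 to 0.63 for MED12L, and 32 of 33 were within 1.5-fold, as for 88.9% of the tested genes. The median was -0.05 over the 33 genes and -0.08 over all tested genes. That general downward shift depended on scaling. Of the 1826 genes called in all, 443 were higher and 1383 lower, and with median-ratio scaling 916 were higher and 1011 lower.

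The third comparison set hnRNP L siRNA directly against SETD2 siRNA, without the scramble libraries. Here 6 of 33 genes passed, where 10.8% of the tested genes passed. MED4, MED18, MED24 and MED28 were lower and MED12L and MED21 higher with hnRNP L siRNA. MED12L and MED18 also passed a fold of 1.5, as 6.84% of the tested genes did. At an unadjusted p under 0.05 there were 9 of 33, against 28.5%. Both hnRNP L siRNA libraries lay below both SETD2 siRNA libraries for 17 genes, where 41.2% of the tested genes did so, and above them for 5 (MED12L, MED14, MED20, MED21 and MED22), where 18.6% did so. The median difference was -0.12 over the 33 genes and -0.10 over all tested genes, and here too the shift of all genes depended on scaling. Of the 1753 genes called in all, 451 were higher and 1302 lower, and with median-ratio scaling 853 were higher and 854 lower, while the same 6 Mediator genes were called. All calls for hnRNP L against scramble and against SETD2 siRNA were lost when any 1 library of the groups compared was left out. The number of Mediator genes called was then 0 in each of 4 fits per comparison, while the tested genes called fell to between 1.06% and 6.71% against scramble and between 0.779% and 1.41% against SETD2 siRNA.

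**Figure D3:**
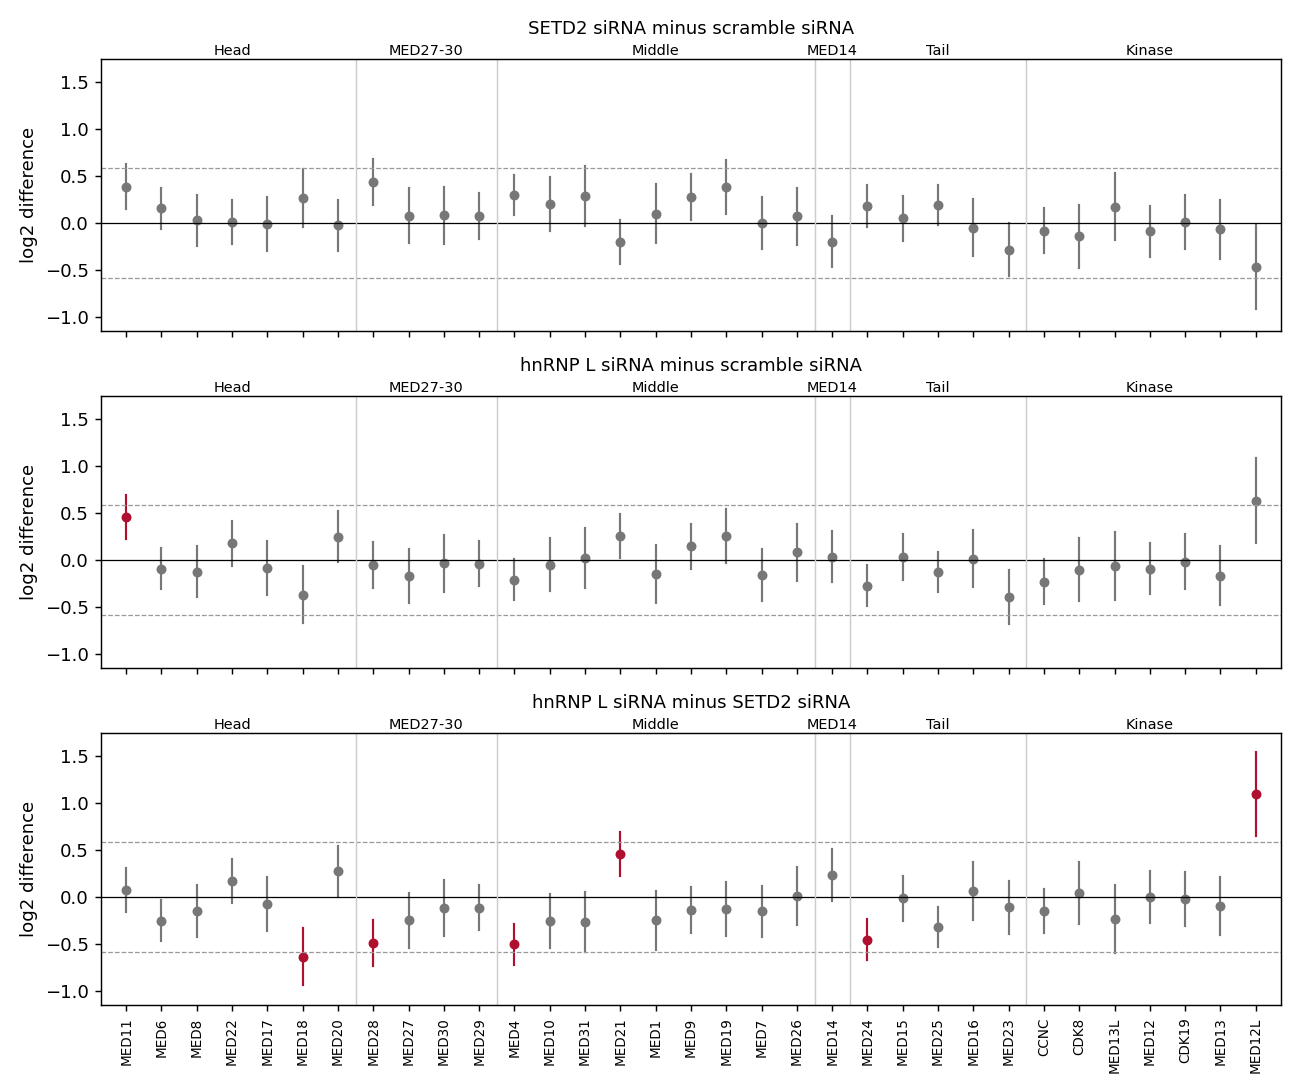
Difference of each Mediator gene on the log2(TPM + 0.5) scale in the 3 comparisons, with 95% intervals from limma; dashed lines mark a 1.5-fold difference and red marks an adjusted p under 0.05. No gene is red for SETD2 against scramble siRNA, MED11 alone for hnRNP L against scramble siRNA, and 6 genes for hnRNP L against SETD2 siRNA, with MED12L at 1.10.

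In the head, MED11, a small subunit that pairs with MED22 in the part of the head that meets the general transcription factors, was at 29.8 and 30.3 TPM in the scramble libraries, 42.0 and 37.0 TPM after SETD2 depletion, and 42.6 and 40.5 TPM after hnRNP L depletion. All 4 depleted libraries were above both scramble libraries, as they also were for MED9 and MED19 of the middle module. For MED11 the depleted groups overlapped each other. MED11 rose by 0.46 ± 0.10 (SE, fold 1.38) after hnRNP L siRNA (limma, Benjamini-Hochberg adjusted p = 0.0275). Its difference after SETD2 siRNA was 0.39 ± 0.10 (adjusted p = 0.215 in limma). Both comparisons use the same scramble libraries. Without scramble replicate 1 or 2, or hnRNP L replicate 1 or 2, the adjusted p for hnRNP L lay between 0.0648 and 0.192 and the difference between 0.43 and 0.50. MED22 was at 18.7 and 17.5 TPM, 18.2 and 18.2 TPM, and 19.95 and 21.1 TPM in the order scramble, SETD2 and hnRNP L siRNA, with no call in any comparison.

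MED18, which with MED20 forms the movable jaw of the head, was at 12.3 and 15.7 TPM in the scramble libraries, 16.7 and 17.0 TPM after SETD2 depletion, and 10.2 and 11.1 TPM after hnRNP L depletion. The scramble libraries lay between the depleted groups, and no groups overlapped. MED18 was lower with hnRNP L than with SETD2 siRNA by a log2 difference of -0.64 ± 0.13 (SE, fold 1.56, limma adjusted p = 0.0219). Its differences from scramble, 0.27 for SETD2 and -0.37 for hnRNP L siRNA, did not pass (limma adjusted p = 0.428 and 0.113). The lowest of the head genes was its jaw partner MED20, at 10.6 and 12.2 TPM in the scramble libraries, 11.2 and 11.1 TPM after SETD2 depletion, and 13.01 and 14.2 TPM after hnRNP L depletion. MED20 was highest in both hnRNP L siRNA libraries, where MED18 was lowest. The MED20 difference between the depletions, 0.27 ± 0.12, did not pass (limma adjusted p = 0.174).

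Among MED27 to MED30, MED28 was the most abundant, at 44.3 and 48.0 TPM in the scramble libraries, 65.9 and 59.4 TPM after SETD2 depletion, and 42.3 and 46.7 TPM after hnRNP L depletion. The SETD2 siRNA libraries stood above the other 4, which overlapped. MED28 was lower with hnRNP L than with SETD2 siRNA by -0.49 ± 0.11 (SE, fold 1.40, limma adjusted p = 0.0247), with 0.44 ± 0.11 for SETD2 against scramble (limma adjusted p = 0.194). MED29, the least abundant of the 4, stayed between 16.7 and 18.9 TPM in all libraries. For all 4 genes both hnRNP L siRNA libraries were below both SETD2 siRNA libraries, as for 41.2% of all tested genes.

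In the middle module, MED4 was at 68.4 and 63.9 TPM in the scramble libraries, 82.2 and 80.4 TPM after SETD2 depletion, and 55.6 and 58.5 TPM after hnRNP L depletion. The groups did not overlap, with scramble siRNA between the depletions. MED4 was lower with hnRNP L than with SETD2 siRNA by -0.51 ± 0.09 (SE, fold 1.42, limma adjusted p = 0.0146). Against scramble it differed by 0.30 after SETD2 and by -0.21 after hnRNP L siRNA, and neither passed (limma adjusted p = 0.262 and 0.185). MED21, which with MED7 forms the hinge that lets the middle module bend, went the other way. It was at 15.5 and 15.6 TPM in the scramble libraries, 13.5 and 13.4 TPM after SETD2 depletion, and 18.7 and 18.6 TPM after hnRNP L depletion. Its replicate libraries lay close together, and no groups overlapped. MED21 was higher with hnRNP L than with SETD2 siRNA by 0.46 ± 0.10 (SE, fold 1.37, limma adjusted p = 0.0273), with -0.20 and 0.26 for SETD2 and hnRNP L against scramble (limma adjusted p = 0.433 and 0.144). Its partner MED7 lay between 6.20 and 7.19 TPM. MED26, the subunit that recruits elongation factors to the polymerase, had the lowest level of the module and lay between 4.45 and 5.02 TPM.

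MED14, the scaffold, was at 26.5 and 24.8 TPM in the scramble libraries, 21.2 and 23.3 TPM after SETD2 depletion, and 23.99 and 28.6 TPM after hnRNP L depletion. It was lower in both SETD2 siRNA libraries than in the other 4, and no difference passed (limma adjusted p of at least 0.240 in the 3 comparisons).

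In the tail, MED23 was the least abundant gene. It was at 17.4 and 16.4 TPM in the scramble libraries, 12.9 and 14.8 TPM after SETD2 depletion, and 11.8 and 13.7 TPM after hnRNP L depletion. All 4 depleted libraries lay below both scramble libraries. The difference was -0.28 ± 0.13 (SE, 95% interval -0.57 to 0.0012) after SETD2 siRNA, and it did not pass (limma adjusted p = 0.382). After hnRNP L siRNA it was -0.40 ± 0.13 (95% interval -0.68 to -0.11), and it did not pass either (limma adjusted p = 0.0769). Between the depletions MED23 differed by -0.11 (95% interval -0.40 to 0.17), and the libraries overlapped. With any 1 library of the groups compared left out, the MED23 difference after hnRNP L siRNA lay between -0.50 and -0.29. Of the 5 tail genes, MED23 was the only 1 with both SETD2 siRNA libraries below both scramble libraries, beside 20.6% of all tested genes. With hnRNP L siRNA 3 of the 5, MED23, MED24 and MED25, lay below both scramble libraries, beside 37.8% of all tested genes. MED24, which sits beside MED23 in the tail and is its most abundant member, was at 62.1 and 65.2 TPM in the scramble libraries, 69.5 and 74.9 TPM after SETD2 depletion, and 51.2 and 53.8 TPM after hnRNP L depletion. The 3 groups did not overlap. MED24 was lower with hnRNP L than with SETD2 siRNA by -0.46 ± 0.10 (SE, fold 1.37, limma adjusted p = 0.0223), with 0.18 and -0.28 for SETD2 and hnRNP L against scramble (limma adjusted p = 0.450 and 0.103). MED16, which contacts MED24 and MED23, was at 22.2 and 28.2 TPM, 25.97 and 22.5 TPM, and 25.6 and 25.0 TPM in the order scramble, SETD2 and hnRNP L siRNA, with all groups overlapping.

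When any 1 of the 4 SETD2 and hnRNP L siRNA libraries was left out, the 6 genes called between the depletions kept their direction. The adjusted p in limma then ranged from 0.0976 to 0.168 for MED18, 0.0916 to 0.198 for MED28, 0.0837 to 0.140 for MED4, 0.126 to 0.176 for MED21, 0.0948 to 0.182 for MED24 and 0.0608 to 0.0992 for MED12L.

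In the kinase module, MED12L stood apart. It was at 2.49 and 2.39 TPM in the scramble libraries, 1.37 and 1.92 TPM after SETD2 depletion, and 3.49 and 4.71 TPM after hnRNP L depletion. The groups did not overlap, with the SETD2 siRNA libraries lowest. MED12L was higher with hnRNP L than with SETD2 siRNA by 1.10 ± 0.20 (SE, fold 2.14, 95% interval 0.65 to 1.55, limma adjusted p = 0.0134). Its differences from scramble were -0.47 after SETD2 siRNA (limma adjusted p = 0.365) and 0.63 after hnRNP L siRNA (limma adjusted p = 0.0750). Exons of MED12L overlap on the other strand with exons of other genes, IGSF10 and P2RY12 among them, and the strandedness of the libraries is not given in the sources used here. IGSF10 was at 0.36 and 0.30 TPM, 0.31 and 0.26 TPM, and 0.56 and 0.41 TPM in the order scramble, SETD2 and hnRNP L siRNA, the same order of groups as MED12L, and its part in the MED12L value was not tested. P2RY12 did not exceed 0.02 TPM in any library.

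MED12, which activates the kinase through cyclin C, was at 19.3 and 18.5 TPM in the scramble libraries, 16.3 and 19.3 TPM after SETD2 depletion, and 16.9 and 18.5 TPM after hnRNP L depletion. MED12L thus held 11.4% of the summed MED12 and MED12L level in both scramble libraries, 7.78% and 9.04% with SETD2 siRNA, and 17.1% and 20.3% with hnRNP L siRNA. These shares did not overlap between siRNAs, and the exact permutation test, two-sided, gave p = 0.33 for each pair of groups, the smallest it can give with 2 libraries against 2. CDK19, the paralog of the kinase CDK8, held between 28.5% and 33.2% of the pair's level, and the 3 groups overlapped. CDK8 itself was at 25.2 and 26.1 TPM in the scramble libraries, 19.7 and 27.1 TPM after SETD2 depletion, and 23.5 and 24.2 TPM after hnRNP L depletion. MED13L, the paralog of MED13, the subunit that ties the kinase module to the rest of Mediator, held between 73.1% and 77.8% of that pair, so the paralog was the more abundant of the pair in every library. Its share was 73.6% and 74.1% in the scramble libraries, 76.4% and 77.8% after SETD2 depletion, and 73.1% and 77.4% after hnRNP L depletion. The SETD2 siRNA shares lay above the scramble shares by a mean of 3.25 points (exact permutation test, two-sided, p = 0.33, the smallest possible), and the hnRNP L siRNA shares overlapped with both. MED13 lay between 5.73 and 7.04 TPM and MED13L between 15.6 and 23.7 TPM. CCNC, cyclin C, was the most abundant gene of the module, at 47.2 and 54.4 TPM in the scramble libraries, 46.9 and 48.9 TPM after SETD2 depletion, and 42.6 and 43.7 TPM after hnRNP L depletion. None of CDK8, CDK19, CCNC, MED12, MED13 and MED13L passed in any comparison. The software that made the values divides reads shared by paralogs by estimate, and how that touches these shares was not tested.

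**Figure D4:**
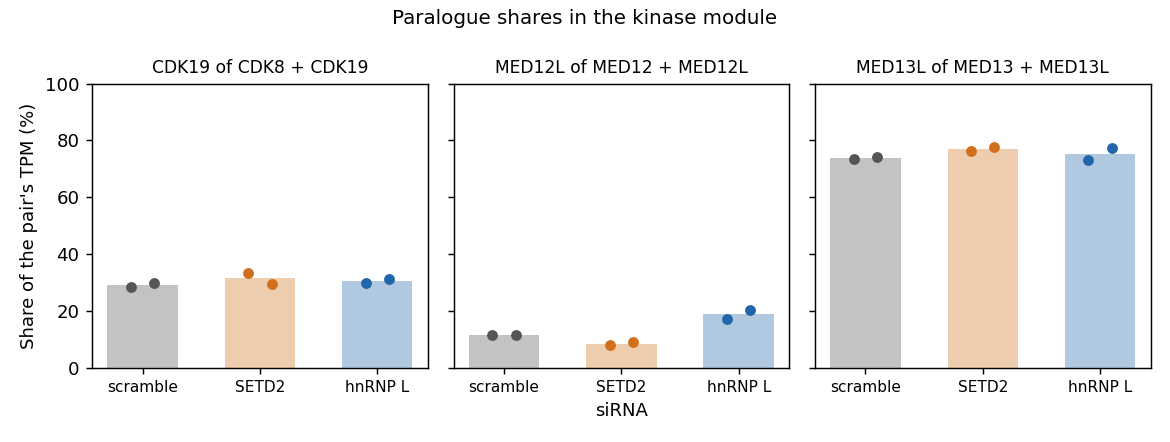
Share of the second paralog in the summed TPM of each pair of the kinase module, in percent, with bars at the mean of the 2 libraries and points for the libraries. The MED12L share is 11.4% with scramble siRNA, 7.78% and 9.04% with SETD2 siRNA, and 17.1% and 20.3% with hnRNP L siRNA; the MED13L share is also higher in both SETD2 siRNA libraries than in both scramble libraries, by a mean of 3.25 points.

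Since hnRNP L is known to bind CA repeats in RNA, the coding strand of each gene body, which reads like the RNA, was searched in hg38 for runs of at least 8 CA units. Such runs were found in 4 of the 33 Mediator genes (12.1%) and in 29.0% of the 16207 tested genes with coordinates, at 0.603 and 1.19 runs per 100 kb. The 4 genes were MED12L with 5 runs, MED13L with 4, CDK8 with 3 and MED21 with 1, all of them in introns by GENCODE release 44. MED12L and MED13L are the longest of the 33 genes, at 351787 and 319789 bases. Per 100 kb the runs came to 1.42 in MED12L, 1.25 in MED13L, 1.8 in CDK8 and 2.28 in MED21. MED27 and CDK19, both longer than CDK8, hold none. The part of gene length was not tested. MED12L and MED21 are the genes that passed as higher with hnRNP L than with SETD2 siRNA, while CDK8 and MED13L did not pass in any comparison. MED14, MED20 and MED22, whose hnRNP L siRNA libraries also lay above both SETD2 siRNA libraries, hold no such run, and neither do MED23 and MED11. With 4 genes this is a description, noticed after the values were seen, and a run is not evidence of binding. The longest run of each gene is shown, with the run in capitals and 10 bases on either side.
MED12L, chr3:151269388-151269451, plus strand: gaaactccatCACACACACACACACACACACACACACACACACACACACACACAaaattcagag
MED21, chr12:27062524-27062559, plus strand: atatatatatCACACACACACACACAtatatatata
CDK8, chr13:26268248-26268319, plus strand: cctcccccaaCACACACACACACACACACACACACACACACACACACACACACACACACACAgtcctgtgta
MED13L, chr12:116276299-116276362, minus strand: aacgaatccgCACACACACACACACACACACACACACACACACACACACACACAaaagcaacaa

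For promoters, 25 of the 33 genes had an entry in the RefSeq promoter table (GRCh38.p14). MED4 and MED18, which were both lower with hnRNP L than with SETD2 siRNA, and MED11, called after hnRNP L siRNA, are shown by the 120 bases before their outermost annotated start, where GENCODE release 44 places no exon. Capitals mark a match to a searched motif on either strand.
MED4, chr13:48095132-48095251, minus strand: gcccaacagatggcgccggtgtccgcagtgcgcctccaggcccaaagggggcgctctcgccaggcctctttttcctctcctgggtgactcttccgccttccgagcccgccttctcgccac
MED18, chr1:28328882-28329001, plus strand: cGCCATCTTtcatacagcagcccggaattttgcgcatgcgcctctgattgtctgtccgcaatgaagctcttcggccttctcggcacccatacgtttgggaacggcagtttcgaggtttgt
MED11, chr17:4731308-4731427, plus strand: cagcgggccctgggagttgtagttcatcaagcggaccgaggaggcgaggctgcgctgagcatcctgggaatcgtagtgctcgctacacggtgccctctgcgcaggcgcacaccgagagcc
Both strands of the 250 bases before each RefSeq start were searched for 6 motifs, none of which contains another. MED18 held the letters of an ETS site, CCGGAAG, which are in 8.52% of all 35116 promoters of the table and in 5 of the 25 Mediator promoters. It also held those of a YY1 site, the capitals above, read on the other strand as AAGATGGC, which are in 1.36% of all promoters and in 2 of the 25. A CRE, TGACGTCA, was found in MED18 too, and in 1.65% of all promoters and 1 of the 25. The NF-Y letters CCAAT were found in MED12L and MED24, as in 32.0% of all promoters. The SP1 letters GGGCGG were found in MED23, as in 42.6% of all promoters. The TATA box letters TATAAA, present in 10.7% of all promoters, were in none of MED12L, MED18, MED23 and MED24. MED4 and MED11 held none of the 6. A match describes letters in this window only.

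Of the other genes called above, MED11 shares exon sequence on the other strand with CXCL16, which lay between 0.47 and 1.06 TPM, and MED28 with FAM184B, which did not exceed 0.11 TPM. MED4 overlaps MED4-AS1, at most at 0.20 TPM. MED24 shares exon sequence on the same strand with the microRNA gene MIR6884, and THRA, on the other strand at 10.8 to 12.9 TPM, overlaps its gene body without shared exon sequence. MED18 and MED21 overlap no exon of another gene. In all, 20 of the 33 genes share exon sequence with an annotated gene, 7 of them on the same strand and 17 on the other, and their values are uncertain to that extent. In hg38 the called genes lie at chr17:4731428-4733608 (MED11, plus strand), chr1:28329002-28335965 (MED18, plus), chr4:17614641-17634105 (MED28, plus), chr13:48053323-48095131 (MED4, minus), chr12:27022546-27066343 (MED21, plus), chr17:40019097-40061215 (MED24, minus) and chr3:151085286-151437072 (MED12L, plus).

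Beside Mediator, 31 genes of the general initiation factors (TFIIA, TFIIB, TFIID, TFIIE, TFIIF and TFIIH) were followed, since Mediator works with them at promoters. After SETD2 and hnRNP L siRNA 0 of the 31 passed against scramble siRNA, where 0.104% and 11.2% of all tested genes passed in limma. At an unadjusted p under 0.05 there were 4 and 5 of 31, against 13.1% and 28.4%. Their median difference was 0.09 after SETD2 siRNA and -0.04 after hnRNP L siRNA. Between the depletions 3 of 31 passed, at a background of 10.8%, with a median of -0.16 beside -0.10 for all tested genes. CDK7, the TFIIH kinase, was at 36.1 and 36.6 TPM with SETD2 siRNA and 26.1 and 28.8 TPM with hnRNP L siRNA, a difference of -0.40 ± 0.10 (SE, limma adjusted p = 0.0407). GTF2F1, the large TFIIF subunit, was at 108 and 109 TPM and at 72.3 and 85.3 TPM, a difference of -0.47 ± 0.11 (SE, limma adjusted p = 0.0359). TAF9, a histone-fold subunit of TFIID, was at 69.7 and 79.8 TPM and at 103 and 105 TPM, a difference of 0.48 ± 0.12 (SE, limma adjusted p = 0.0421). As in Mediator, the called genes of these factors went both ways.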

How the data were processed

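RNA-seq of 6 libraries was analysed, made after ribosomal RNA depletion and poly(A) enrichment, and the 10 ChIP samples of the series were not analysed here. The authors used STAR 2.6.1c with hg38 and Ensembl 96 gene models on paired reads, and RSEM 1.3.0 gave the deposited TPM. The authors' own test, edgeR, needs counts, which were not used here.

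TPM were transformed to log2(TPM + 0.5). Genes of all biotypes with a mean TPM of at least 0.5 were fitted in limma 3.58.1 (R 4.3.3) with 1 mean per siRNA and a variance trend, and p-values were adjusted by Benjamini-Hochberg over the 16300 tested genes, 93 of which have no biotype in GENCODE 44. A gene passed at an adjusted p under 0.05. The fit was tested on simulated data. Python 3.11.15, pandas 2.3.3, SciPy 1.17.1 and Matplotlib 3.10.9 were also used.

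Named genes are MED23, the kinase module paralogs, SETD2, HNRNPL, every Mediator gene that passed in any comparison, the genes of highest and lowest mean in each module, and up to 3 genes per direction that passed in each other list. Any other gene was named after its values were seen, and some genes are not reported here. The genes and lists were chosen with earlier results of these data known.

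The numbers 1 and 2 occur in both the scramble and the hnRNP L groups. Deviations of same-numbered libraries correlated at -0.1256 across genes, and the numbers were not taken to pair them. With 2 libraries a group both numbers give this same value, so it cannot decide whether the libraries were paired. Alternatives covered the pseudocount (0.1 and 1), the filter (none, or a mean of at least 1 TPM), the gene set (without mitochondrially encoded genes, or protein-coding and lncRNA genes only), the scaling (median-ratio or quantile), a fit of the 2 groups compared, no variance trend, a fold above 1.5, a replicate block and the omission of each library. With 2 libraries a group, no search for outlying libraries was made.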

Additional observations from a re-analysis of the deposited data

How the results depend on the processing

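With 2 libraries per siRNA, an exact test of a single value cannot go below p = 0.33, and every call rests on the spread shared across genes. The count of 0 after SETD2 siRNA held under each alternative run. After hnRNP L siRNA the count of Mediator genes called, 1, became 0 without a filter, with only the 2 groups compared, without a variance trend and with a fold above 1.5. It became 2 with protein-coding and lncRNA genes only and with median-ratio scaling (MED11 and MED12L), 3 with quantile normalization (MED11, MED12L and MED21) and 3 without mitochondrially encoded genes (MED11 higher, MED18 and MED24 lower). With a replicate block by the labelled numbers it was 0, with 795 genes called in all, and with the crossed pairing, added after seeing the data, it was 2, with 2107 in all. Of the 6 genes called between the depletions, 0 were called without a filter, 3 without a variance trend (MED4, MED12L and MED18) and 2 with a fold above 1.5; with any 1 library left out the range was 0 to 0 in this comparison and in that of hnRNP L siRNA with scramble. The cause of these losses was not tested.

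The MED28 difference between hnRNP L and scramble siRNA, -0.05, turned to 0.041 with median-ratio scaling and 0.012 with quantile normalization, and ranged from -0.12 to 0.018 with a library left out. MED23 between the depletions turned to 0.011 with quantile normalization, and MED11 between the depletions ranged from -0.015 to 0.16 with a library left out. Module medians relative to all genes also moved with a library left out. For SETD2 against scramble the head ranged from 0.035 to 0.11 (0.013 with all libraries). For hnRNP L against scramble the head ranged from -0.039 to 0.12 (-0.002 with all libraries) and the middle from 0.012 to 0.16 (0.11). Between the depletions the middle ranged from -0.13 to -0.00036 (-0.056 with all libraries) and the kinase module from -0.040 to 0.14 (0.075). With MED27 to MED30 counted in the tail, a choice added after seeing the data, the tail median for hnRNP L against scramble turned from -0.042 to 0.031. From single libraries, the CDK19 share with SETD2 siRNA ranged from 29.5% to 33.2%, the MED12L share with hnRNP L siRNA from 17.1% to 20.3% and the MED13L share with hnRNP L siRNA from 73.1% to 77.4%. Adding 1 TPM to each gene moved the MED12L share to 14.7%, 12.3% and 21.3% with scramble, SETD2 and hnRNP L siRNA and the MED13L share with hnRNP L siRNA to 73.3%.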

Other observations

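MED26 recruits elongation factors, and 14 genes of these partners were measured. After SETD2 siRNA 0 of 14 passed in limma, where 0.104% of all tested genes passed, and 2 of 14 reached an unadjusted p under 0.05, against 13.1%. After hnRNP L siRNA 2 of 14 passed, 14.3% beside 11.2% of all tested genes. ELL3, a member of the ELL family of elongation factors, was at 4.13 and 4.22 TPM in the scramble libraries, 5.07 and 4.81 TPM after SETD2 depletion, and 8.29 and 7.02 TPM after hnRNP L depletion. ELL3 rose by 0.80 ± 0.14 (SE) after hnRNP L siRNA (limma with Benjamini-Hochberg adjustment, adjusted p = 0.0113). MLLT1, a reader of acylated histones in the super elongation complex, was at 21.4 and 22.1 TPM, 27.3 and 25.1 TPM, and 15.0 and 16.0 TPM in the same order, and fell by 0.48 ± 0.11 (SE, limma adjusted p = 0.0258). Both also differed between the depletions, ELL3 by 0.58 and MLLT1 by -0.74 (hnRNP L minus SETD2 siRNA, limma adjusted p = 0.0323 and 0.0063). The median difference of the 14 genes after hnRNP L siRNA was -0.06, beside -0.08 for all tested genes.

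Of 10 genes for coactivators and cohesin that meet Mediator at enhancers, among them EP300 and NIPBL, none passed in any of the 3 comparisons. In limma, 0.104%, 11.2% and 10.8% of all tested genes passed for SETD2 against scramble, hnRNP L against scramble and hnRNP L against SETD2 siRNA. At an unadjusted p under 0.05 there were 0, 1 and 3 of the 10 for SETD2 against scramble, hnRNP L against scramble and hnRNP L against SETD2 siRNA, beside 13.1%, 28.4% and 28.5% of all tested genes. Their median differences were 0.09, -0.06 and -0.10.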
